A study of Mus musculus with 4 samples.

Results

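The genes described here encode the chains of the collagens, the triple-helical proteins of the extracellular matrix. They were chosen by name alone, as protein-coding mouse genes with a symbol of the form Col, type number, a, chain number, and there were 44 of them in the annotation. In the 4 livers measured, 41 of the 44 were listed in at least 1 table of transcripts and 23 had enough reads to be tested, among 17543 genes listed and 12837 genes tested in all. RNA was sequenced from whole liver of Ezh2 K307R mice, which carry the genotype Ezh2(K307R/K307R), and of WT mice, all of the C57BL/6 strain, with 2 livers for each genotype. The labels number the livers 1 and 2 and give neither the sex, the age, the time of collection nor the origin of any animal, so every p-value is set against the spread between these 4 samples, which may be technical. K307R is a point mutation in Ezh2, the enzyme of Polycomb repressive complex PRC2 that methylates histone H3 at lysine 27, and the comparison addresses which liver transcripts differ in the mutant.

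Each collagen molecule is wound from chains that are encoded by separate genes. The fibrillar types assemble into the cables that carry tension in portal tracts and, when they accumulate, in scars. The basement membrane types build sheets under epithelia and along vessels, and the remaining types coat fibrils, form beaded microfilaments or span the cell membrane. In liver, stellate cells in the wall of the sinusoids, portal fibroblasts and endothelial cells are known as sources of most collagen chains, while hepatocytes are known to make type XVIII.

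The libraries held 18602928 and 18749610 estimated reads in the Ezh2 K307R livers and 19289715 and 20044832 in the WT livers. Ezh2 itself stood at 3.45 and 2.56 CPM (reads scaled for library size and composition) in the Ezh2 K307R livers and at 3.36 and 3.93 CPM in the WT livers, which differed by -0.28 on the log2 scale (SE 0.33, edgeR adjusted p = 0.736), and gene counts do not check a point mutation. The X-linked RNA Xist had 327 and 573 CPM in the Ezh2 K307R livers against 0.347 and 0.284 CPM in the WT livers, and the Y-linked gene Ddx3y had 0 and 0 CPM against 67.6 and 52.4 CPM. Genotype and sex-chromosome pattern therefore cannot be told apart in any result below. In bulk liver, fewer cells of a type and less RNA per cell cannot be told apart either.

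Collagen transcripts were unequal in level. Col18a1, which encodes the chain of type XVIII, a basement membrane proteoglycan whose released end is known as endostatin, was by far the most abundant chain on the FPKM scale (read density per transcript length and library depth, as deposited by the authors). It stood at 189 and 209 FPKM in the Ezh2 K307R livers and 148 and 167 FPKM in the WT livers, which was 86.7% and 88.4% of the summed FPKM of all collagen chains in the Ezh2 K307R livers and 79.2% and 68.8% in the WT livers. After Col18a1 the highest mean levels over the 4 livers were those of Col3a1 (7.78 FPKM), Col27a1 (4.55 FPKM), Col4a1 (4.50 FPKM) and Col14a1 (4.49 FPKM). Col1a1, the chain best known from liver scars, followed at 3.27 FPKM and Col1a2 at 3.23 FPKM. The order of these 6 genes differed between genotypes. Col14a1 was the highest of the 6 in both Ezh2 K307R livers, and Col3a1 was the highest in both WT livers.

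**Figure D1:**
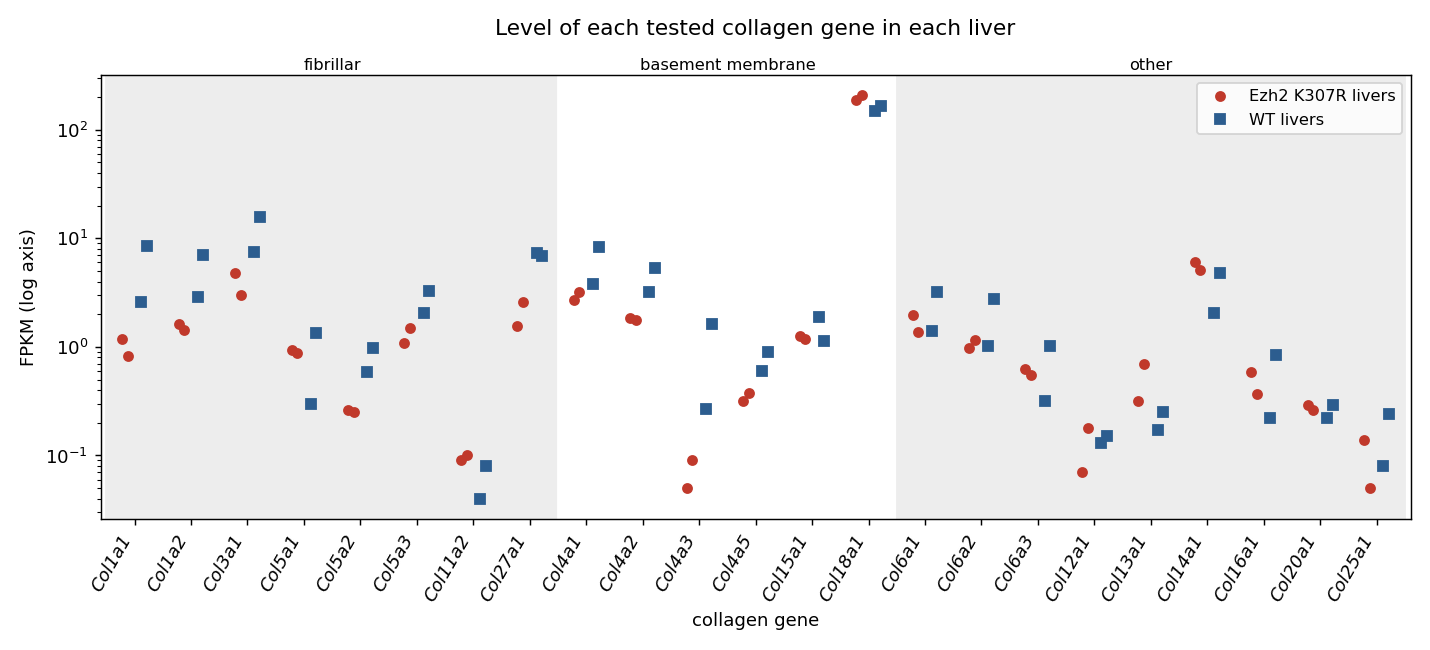
FPKM (log axis) of each of the 23 tested collagen genes in each liver, by class, with Ezh2 K307R livers as circles and WT livers as squares. Col18a1 sits above 148 FPKM in every liver, and the Ezh2 K307R points of Col1a1, Col1a2, Col3a1, Col27a1 and the type IV chains lie below both WT points.

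As classes, fibrillar chains summed lower in both Ezh2 K307R livers than in both WT livers, basement membrane chains summed higher, and the other chains lay between the WT livers. The 11 fibrillar genes summed to 11.6 and 10.6 FPKM in the Ezh2 K307R livers against 23.2 and 43.8 FPKM in the WT livers, 3.02-fold lower in the mean (11.1 ± 0.672 against 33.5 ± 14.6 FPKM, SD, n = 2 each). The 8 basement membrane genes summed to 196 and 215 FPKM in the Ezh2 K307R livers against 158 and 184 FPKM in the WT livers (206 ± 14 against 171 ± 18.7 FPKM, SD, n = 2 each), a sum made up mostly of Col18a1. Without Col18a1 they summed to 6.28 and 6.66 FPKM in the Ezh2 K307R livers against 9.78 and 17.5 FPKM in the WT livers. The 6 type IV genes among them summed to 5.01 and 5.49 FPKM in the Ezh2 K307R livers against 7.91 and 16.4 FPKM in the WT livers, 2.31-fold lower in the mean. For fibrillar and for type IV chains the Ezh2 K307R livers lay close together, below either WT liver, and the WT livers lay apart, with WT replicate 2 at 1.89 times WT replicate 1 for the fibrillar chains and 2.07 times for the type IV chains. The 25 genes outside the fibrillar and basement membrane classes summed to 11.2 and 10.1 FPKM in the Ezh2 K307R livers, between the WT livers at 5.93 and 14.2 FPKM. Without WT replicate 2 the log2 ratio of the sums, Ezh2 K307R over WT, was -1.07 in place of -1.60 for the fibrillar genes and 0.85 in place of 0.08 for these other genes. With 2 livers a genotype no permutation test of a sum can reach a p of 0.05, so none is given. Of the collagen FPKM other than that of Col18a1, fibrillar chains made up 39.7% and 38.8% in the Ezh2 K307R livers against 59.7% and 58.0% in the WT livers, a share that hardly differed between livers of 1 genotype. The share of the remaining classes was 38.7% and 36.8% in the Ezh2 K307R livers against 15.2% and 18.9% in the WT livers. Type IV held 17.2% and 20.1% in the Ezh2 K307R livers and 20.3% and 21.7% in the WT livers.

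**Figure D2:**
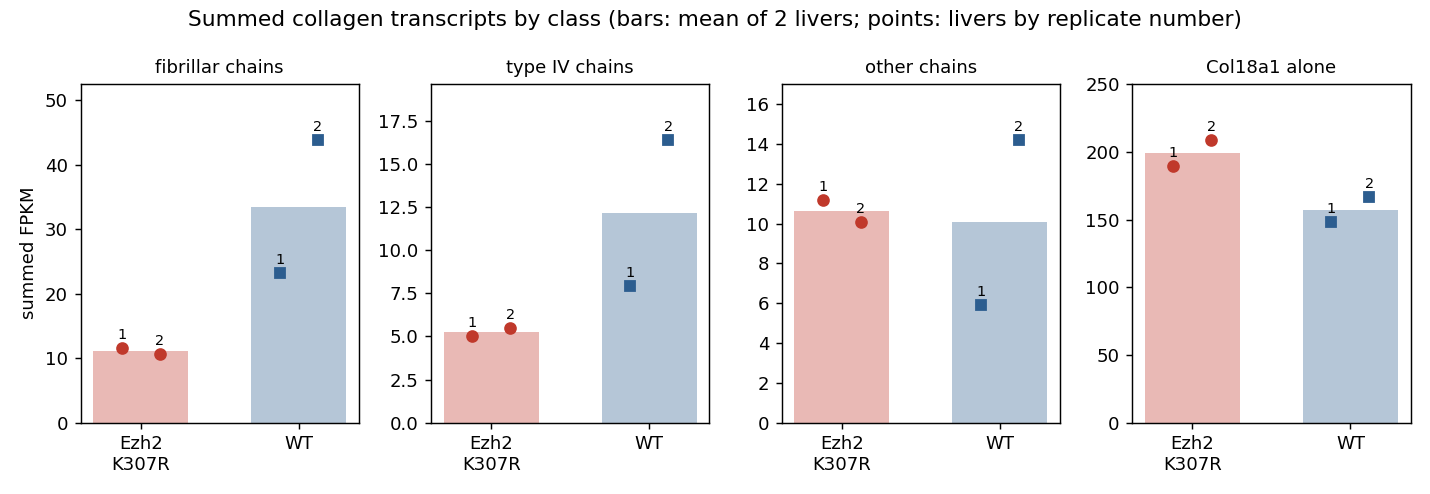
Summed FPKM of the fibrillar, type IV and other collagen chains and FPKM of Col18a1 alone, with bars for the mean of 2 livers and points for livers marked by replicate number; each panel has its own axis from 0. Both Ezh2 K307R livers lie below both WT livers for fibrillar chains (11.6 and 10.6 against 23.2 and 43.8) and for type IV chains, and above both for Col18a1.

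Gene by gene, 6 of the 23 tested collagen genes fell in the Ezh2 K307R livers and 0 rose, by the quasi-likelihood test of edgeR. A gene counted as called when its p, adjusted by Benjamini-Hochberg over all 12837 genes, was under 0.05. Over all tested genes 1.47% fell and 1.39% rose, 2.86% in either direction. The genes that fell were Col1a1, Col1a2, Col5a2 and Col27a1 among 8 tested fibrillar genes and Col4a2 and Col4a3 among 6 tested basement membrane genes. None of the 9 tested genes of the other classes was called in either direction. The median log2 fold change was -1.65 for the fibrillar genes, -1.14 for the basement membrane genes and -0.23 for the other genes, beside 0.01 for all tested genes. Both Ezh2 K307R livers lay below both WT livers in 11 of the 23 genes, against 23.4% of all tested genes, and above both in 4, against 25.2%. At an unadjusted p under 0.05, 10 of the 23 were lower and 0 higher, against 8.31% and 8.50% of all tested genes. The number called depended on single libraries and on the settings. A fit without 1 liver takes a gene's spread only from the genotype that kept 2 livers. A call gained or kept in such a fit is therefore weak evidence. Over the fits that held each gene, Col27a1 was called in 15 of 15, Col4a2 in 10 of 15, Col4a3 in 7 of 13 and Col5a2 in 5 of 13. When single livers were left out, the collagen count moved up or down, as did the count over all tested genes. With total-count scaling 1 collagen gene was lower, Col27a1, where 124 of all 12837 tested genes were lower. With DESeq2 9 collagen genes were lower, where 386 of all tested genes were lower.

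**Figure D3:**
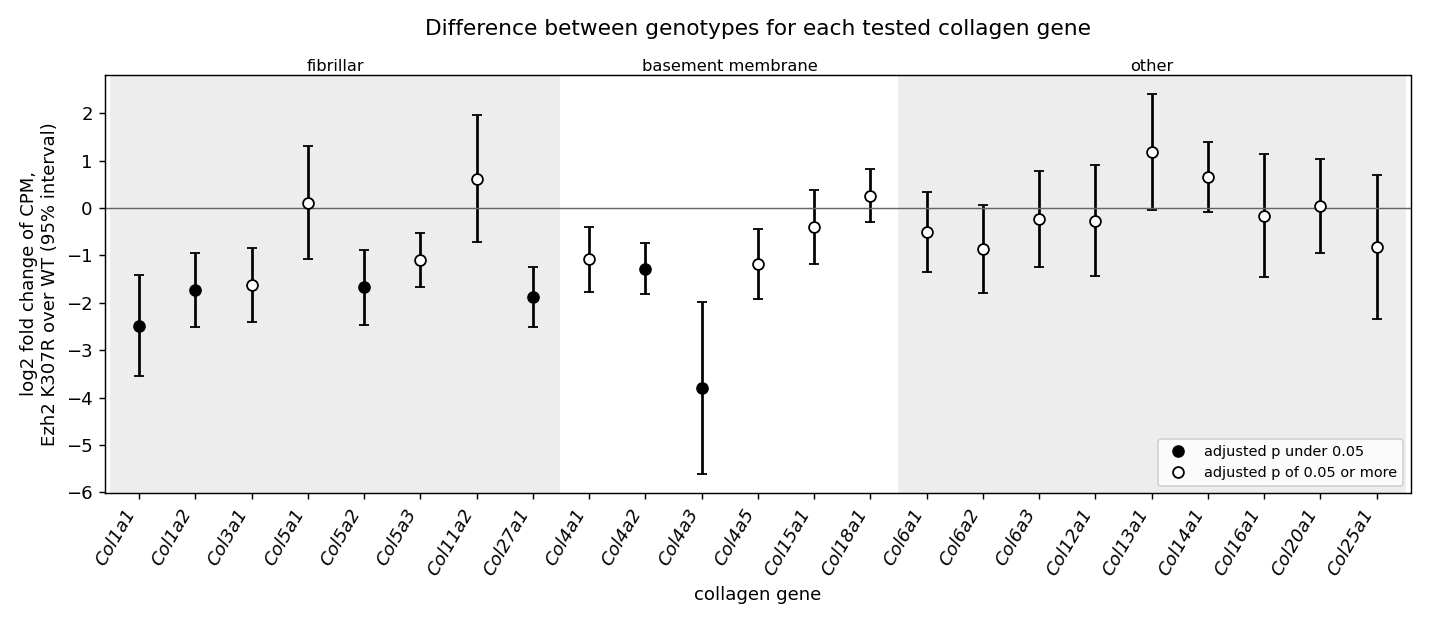
Log2 fold change of CPM, Ezh2 K307R over WT, with its 95% interval from edgeR's fit, for the 23 tested collagen genes by class; filled points passed an adjusted p of 0.05. The 6 filled points lie between -3.80 and -1.28, and the intervals of Col18a1 and of all 9 genes of the other classes include 0.

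Among the fibrillar genes, Col27a1 had the smallest p. It encodes a fibrillar chain best known from cartilage and lies on mouse chromosome 4 (Entrez gene 373864, GRCm38 63214009 to 63334991). Col27a1 had 11.8 and 19.1 CPM in the Ezh2 K307R livers against 63.0 and 50.3 CPM in the WT livers (15.5 ± 5.16 against 56.6 ± 9.01, SD, n = 2 each). The groups were well apart, and WT replicate 1 rather than 2 was the higher WT liver, unlike for most collagen genes. The log2 fold change was -1.87 (SE 0.27, 95% interval -2.50 to -1.24, edgeR adjusted p = 0.0157), a 3.66-fold fall. Col27a1 kept its call in all 15 fits run, with log2 fold changes of -2.26 to -1.42 and a highest adjusted p of 0.0475.

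Both type I chains were lower, and both calls depended on the settings. Col1a1, on chromosome 11, had 7.06 and 4.81 CPM in the Ezh2 K307R livers against 17.5 and 48.6 CPM in the WT livers. Its log2 fold change was -2.48 (SE 0.46, edgeR adjusted p = 0.0365), and every Ezh2 K307R value lay below every WT value although the WT livers themselves differed 2.77-fold. Col1a2, on chromosome 6, had 8.54 and 7.31 CPM in the Ezh2 K307R livers against 17.1 and 35 CPM in the WT livers, or -1.72 on the log2 scale (SE 0.34, edgeR adjusted p = 0.0427). Type I collagen is wound from a pair of Col1a1 chains and a single Col1a2 chain. The ratio of Col1a1 to Col1a2 in FPKM was 0.724 and 0.576 in the Ezh2 K307R livers and 0.900 and 1.22 in the WT livers. Without WT replicate 2, the WT liver with more of both, the log2 fold changes shrank to -1.57 for Col1a1 and -1.11 for Col1a2. Col1a1 was called in 9 and Col1a2 in 7 of the 15 fits, and both were lower in all 15. Both calls were lost with total-count scaling (adjusted p = 0.0541 for Col1a1 and 0.0769 for Col1a2), limma-voom (0.0674 and 0.0680) and the replicate block (0.0593 and 0.0569), and in both limma fits to FPKM. Col1a1 also lost its call without Ezh2 K307R replicate 2, and Col1a2 without Ezh2 K307R replicate 1 or 2. Col1a2 lost its call as well with the filter of a mean of at least 1 CPM (adjusted p = 0.051).

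The promoters of Col27a1 and Col1a2 are shown because these are the fibrillar genes that fell for which RefSeq's GRCm38.p6 promoter table held a window, from 250 bases before to 50 bases after the annotated start. Capitals mark a CCAAT box (CCAAT or its complement ATTGG) or a GC box (GGGCGG or CCGCCC), searched on both strands. The Col27a1 window is chr4:63215162-63215461 on the plus strand and the Col1a2 window chr6:4505368-4505667 on the plus strand. The start used for Col27a1, 63215412, lies inside the annotated gene span, which begins upstream at 63214009.
Col27a1: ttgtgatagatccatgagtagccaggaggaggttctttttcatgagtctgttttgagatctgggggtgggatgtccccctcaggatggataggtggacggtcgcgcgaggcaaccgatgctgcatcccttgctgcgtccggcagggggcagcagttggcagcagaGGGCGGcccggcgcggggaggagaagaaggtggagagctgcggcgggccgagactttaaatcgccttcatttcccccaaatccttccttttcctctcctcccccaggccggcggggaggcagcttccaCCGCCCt
Col1a2: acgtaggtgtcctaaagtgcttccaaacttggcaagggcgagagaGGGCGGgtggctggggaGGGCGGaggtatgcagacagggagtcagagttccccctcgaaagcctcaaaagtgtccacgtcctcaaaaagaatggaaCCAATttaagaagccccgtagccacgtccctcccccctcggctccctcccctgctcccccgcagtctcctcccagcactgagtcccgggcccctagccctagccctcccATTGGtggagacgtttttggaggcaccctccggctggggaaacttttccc
The Col27a1 window held GC boxes and no CCAAT box, and the Col1a2 window held both kinds. Neither held the TATA box letters TATAAA. Among the 38 windows of 35 collagen genes in the table, 23 held a GC box, 13 a CCAAT box and 5 the TATA letters, against 35.7%, 37.4% and 13.6% of all 32851 windows of this length. The median GC content was 59.8% in the collagen windows and 52.7% in all windows. The genes with TATA letters were Col3a1, Col10a1, Col11a2, Col13a1 and Col17a1, of which Col10a1 and Col17a1 were not tested.

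Type III and type V chains assemble into the same fibrils as type I, and type V is known to start them and limit their width. Col3a1 had 26.7 and 16.2 CPM in the Ezh2 K307R livers against 47.2 and 84.8 CPM in the WT livers, with a log2 fold change of -1.62 (SE 0.34) that just missed the threshold (edgeR adjusted p = 0.0510). Its groups did not overlap. The log2 fold change was -1.98 without WT replicate 1 and -1.14 without WT replicate 2. It was -2.02 without Ezh2 K307R replicate 1 and -1.30 without Ezh2 K307R replicate 2. Col3a1 was lower in all 15 fits and called in 6 of them. Col5a2 had 1.70 and 1.64 CPM in the Ezh2 K307R livers against 4.40 and 6.25 CPM in the WT livers and fell (log2 fold change -1.67, SE 0.34, edgeR adjusted p = 0.0464). It lost its call without WT replicate 2 (0.0713), Ezh2 K307R replicate 1 (0.147) or Ezh2 K307R replicate 2 (0.177). Col5a3 had 6.74 and 8.95 CPM in the Ezh2 K307R livers and 14.3 and 19.2 CPM in the WT livers, without overlap, and differed by -1.10 on the log2 scale (SE 0.25, edgeR adjusted p = 0.0650).

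Col5a1, the partner of Col5a2 in the usual type V molecule, overlapped between genotypes. Col5a1 had 7.85 and 7.21 CPM in the Ezh2 K307R livers, between the WT livers at 2.89 and 11 CPM, and differed by 0.11 on the log2 scale (SE 0.51, 95% interval -1.08 to 1.30, edgeR adjusted p = 0.946). Its sign depended on the WT liver used, at -0.54 without WT replicate 1 and 1.37 without WT replicate 2. Per length, Col5a1 stood at 3.58 and 3.52 times Col5a2 in the Ezh2 K307R livers and at 0.508 and 1.38 times in the WT livers, so that the order of the 2 chains turned within the WT pair. Col11a2, a cartilage chain, was near the filter, with 11 and 12 reads in the Ezh2 K307R livers and 5 and 10 reads in the WT livers. Of the fibrillar genes not tested, Col11a1 had at most 2 reads in a liver, Col24a1 at most 6, and Col2a1 was listed in none of the 4 tables.

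Among the basement membrane genes, the common type IV chains were lower. Col4a1 and Col4a2 form the network found in nearly all basement membranes. Col4a2 had 12 and 11.2 CPM in the Ezh2 K307R livers against 23.3 and 33.1 CPM in the WT livers, or -1.28 on the log2 scale (SE 0.23, edgeR adjusted p = 0.0341), a call lost without Ezh2 K307R replicate 1 (0.0751) or 2 (0.111). Col4a1 had 18.1 and 20.5 CPM in the Ezh2 K307R livers against 28.6 and 53.0 CPM in the WT livers. The difference, -1.08 on the log2 scale (SE 0.30, edgeR adjusted p = 0.111), did not pass the threshold, though its groups did not overlap. It was -1.46 without WT replicate 1 and -0.57 without WT replicate 2. The Col4a1 to Col4a2 ratio in FPKM was 1.46 and 1.79 in the Ezh2 K307R livers and 1.2 and 1.56 in the WT livers, with overlapping ranges.

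These genes are read in opposite directions from neighbouring starts on chromosome 8. The Col4a2 window is shown because it holds the start site of each gene's promoter window (chr8:11312555-11312854, plus strand, RefSeq, GRCm38.p6). These sites are 11312805 on the plus strand for Col4a2 and 11312826 on the minus strand for Col4a1. Capitals mark the 22 bases from one site to the other. The annotated span of Col4a1 reaches further, to 11312889, beyond the window, and overlaps that of Col4a2 by 85 bases.
Col4a2: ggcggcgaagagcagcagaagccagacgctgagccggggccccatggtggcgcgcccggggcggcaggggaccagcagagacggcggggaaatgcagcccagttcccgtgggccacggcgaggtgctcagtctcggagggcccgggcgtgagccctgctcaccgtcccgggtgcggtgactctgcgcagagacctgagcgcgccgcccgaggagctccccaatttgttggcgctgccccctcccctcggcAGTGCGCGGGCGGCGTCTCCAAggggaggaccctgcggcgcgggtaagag
The window is 73.7% G and C. Because no source used here gives the strand setting of the counting, reads in such shared bases cannot be assigned to either gene.

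The rarer type IV chains are known from kidney, lung and other specialised membranes, and mutations in them cause Alport syndrome in humans. Col4a3, on chromosome 1, had the largest fall of the collagen genes, with 8 and 14 reads in the Ezh2 K307R livers against 45 and 282 reads in the WT livers. In CPM that was 0.424 and 0.716 in the Ezh2 K307R livers against 2.60 and 13.3 in the WT livers, or -3.80 on the log2 scale (SE 0.78, edgeR adjusted p = 0.0488). WT replicate 2 set its size: the log2 fold change was -2.18 without it and -4.53 without WT replicate 1. The call was lost without Ezh2 K307R replicate 1 or 2. Col4a4, which shares its start region with Col4a3 and overlaps it by 114 bases in the annotation, was not tested, at 6 and 6 reads in the Ezh2 K307R livers and 8 and 33 reads in the WT livers. Col4a5, on the X chromosome, had 2.02 and 2.40 CPM in the Ezh2 K307R livers against 4.46 and 5.63 CPM in the WT livers, without overlap (log2 fold change -1.19, SE 0.32, edgeR adjusted p = 0.105). Col4a6, its neighbour on the X chromosome, had at most 4 reads in a liver.

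The multiplexins, types XV and XVIII, were not called. Col15a1 had 6.79 and 6.09 CPM in the Ezh2 K307R livers and 11.3 and 5.82 CPM in the WT livers, which overlapped (log2 fold change -0.40, SE 0.34, edgeR adjusted p = 0.610). Col18a1, on chromosome 10, had 1041 and 1145 CPM in the Ezh2 K307R livers against 946 and 881 CPM in the WT livers. Its groups did not overlap, with both Ezh2 K307R livers higher, but the log2 fold change of 0.26 (SE 0.24, 95% interval -0.30 to 0.82, edgeR adjusted p = 0.653) did not pass the test.

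Col18a1 has 2 annotated starts, which lie 52825 bases apart on the minus strand of chromosome 10, and the tables listed a transcript for each. Both windows are shown so that they can be compared; capitals mark CCAAT and GC boxes as above. The upstream window is chr10:77166481-77166780 and the downstream window chr10:77113656-77113955, both on the minus strand (RefSeq, GRCm38.p6).
Upstream start: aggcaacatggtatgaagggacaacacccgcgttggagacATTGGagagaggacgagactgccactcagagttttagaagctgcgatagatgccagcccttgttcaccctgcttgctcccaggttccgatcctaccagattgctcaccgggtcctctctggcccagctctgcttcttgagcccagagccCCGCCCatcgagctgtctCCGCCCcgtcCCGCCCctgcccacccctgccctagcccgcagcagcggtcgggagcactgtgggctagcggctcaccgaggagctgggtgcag
Downstream start: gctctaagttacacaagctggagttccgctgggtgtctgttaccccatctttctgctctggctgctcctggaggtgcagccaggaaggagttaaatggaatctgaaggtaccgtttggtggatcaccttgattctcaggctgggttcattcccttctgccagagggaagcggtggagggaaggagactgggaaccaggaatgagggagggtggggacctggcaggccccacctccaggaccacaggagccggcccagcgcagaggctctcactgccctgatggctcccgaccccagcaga
The upstream window held GC boxes and a CCAAT box and the downstream window neither. The transcript from the downstream start, the one known as the liver form, had 141 and 208 FPKM in the Ezh2 K307R livers and 146 and 123 FPKM in the WT livers. The transcript from the upstream start had 48.0 and 0.40 FPKM in the Ezh2 K307R livers and 1.89 and 44.2 FPKM in the WT livers. The upstream transcript was thus high in Ezh2 K307R replicate 1 and WT replicate 2 and low in the other two livers, and it differed more between livers of 1 genotype than between genotypes. The division of reads between transcripts that share most exons is an estimate by RSEM, and its error was not given in the tables.

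**Figure D4:**
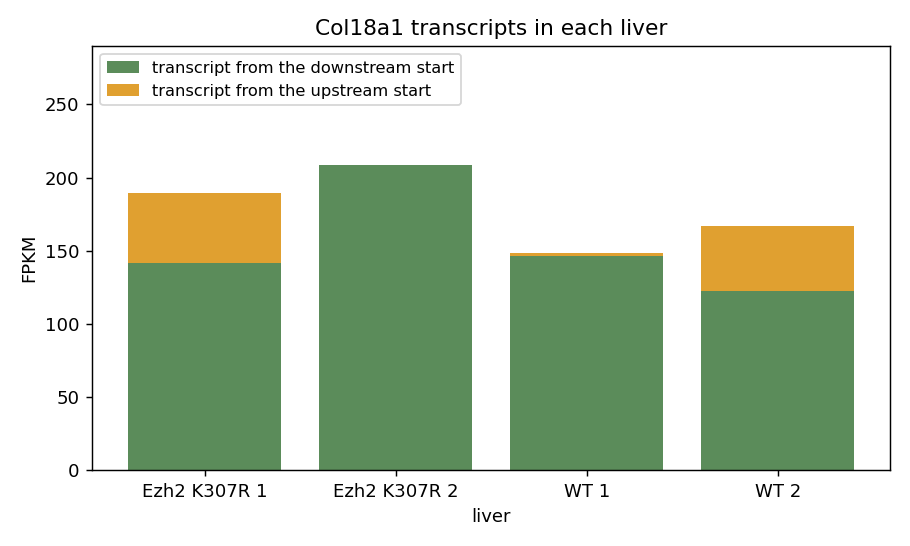
FPKM of the Col18a1 transcripts in each liver, stacked, with the transcript from the downstream start below and that from the upstream start above. The upstream transcript reaches 48.0 FPKM in Ezh2 K307R replicate 1 and 44.2 FPKM in WT replicate 2 and stays under 2 FPKM in the other livers.

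The chains of the remaining classes showed no call. Col14a1, which decorates the surface of fibrils, had 39.0 and 31.9 CPM in the Ezh2 K307R livers against 14.9 and 30.1 CPM in the WT livers, with both Ezh2 K307R livers above both WT livers. Its log2 fold change was 0.65 (SE 0.32, 95% interval -0.09 to 1.39, edgeR adjusted p = 0.358). It was 0.24 without WT replicate 1 and 1.24 without WT replicate 2. In FPKM, Col14a1 stood at 5.11 and 6.12 times Col1a1 in the Ezh2 K307R livers, against 0.785 and 0.569 times in the WT livers. The type VI chains, which build beaded microfilaments, overlapped between genotypes for Col6a1 (7.80 and 5.27 CPM in the Ezh2 K307R livers, 6.25 and 12.3 CPM in the WT livers) and Col6a3. Col6a2 did not overlap, at 3.61 and 4.14 CPM in the Ezh2 K307R livers and 4.28 and 9.80 CPM in the WT livers. The difference was -0.87 on the log2 scale (SE 0.40, edgeR adjusted p = 0.330). It was -1.34 without WT replicate 1 and -0.15 without WT replicate 2. Col13a1, a transmembrane collagen, had 18 and 39 reads in the Ezh2 K307R livers and 10 and 15 reads in the WT livers (log2 fold change 1.18, SE 0.53, edgeR adjusted p = 0.314). The log2 fold changes of Col12a1, Col16a1, Col20a1 and Col25a1 lay between -0.83 and 0.04, and the smallest of their adjusted p-values was 0.588.

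Of the 44 genes, 18 were listed and not tested. They had 33 reads or fewer in every liver, and 9 of them had 3 reads or fewer in every liver. Those with 10 or more reads in some liver were Col4a4, Col8a1, Col8a2, Col23a1 and Col28a1. Col2a1, Col19a1 and Col26a1 were listed in none of the tables. The least read gene that was tested had 38 reads over the 4 livers and the most read gene that was not had 53, since the filter asks for enough reads in at least 2 livers. In the edgeR fit with no filter beyond 1 read, which held all 18, 0 of them were called. Among the 17483 genes of that fit, 410 were called higher and 419 lower. At an unadjusted p under 0.05, 2 of the 18 were lower and 0 higher. No unadjusted share over all genes of that fit is given here, so these counts are description only.

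The WT livers differed from each other in most collagen genes. Of the 23 tested genes, 19 were higher in WT replicate 2 than in WT replicate 1 and 9 were over 2-fold higher, with a median log2 difference of 0.85. Over all 12837 tested genes, 6506 were higher and 779 over 2-fold higher in WT replicate 2, with a median of 0.01. Col27a1, Col15a1, Col12a1 and Col18a1 were the exceptions, at 0.798, 0.516, 0.982 and 0.931 times WT replicate 1. Between the Ezh2 K307R livers the median log2 difference, replicate 1 over replicate 2, was 0.10, and 13 of the 23 genes were higher in replicate 1. That was near the share over all 12837 tested genes, of which 6412 were higher in replicate 1, with a median of -0.0.

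Among the genes that fold, trim, crosslink and degrade collagen, 1 rose and 1 fell, against 1.39% and 1.47% of all tested genes. These lists, like the marker lists below, were written from textbook knowledge, with earlier results of these data known. Of 16 tested genes of collagen folding and hydroxylation 0 were called, with a median log2 fold change of -0.25. At an unadjusted p under 0.05, 2 of the 16 were lower and 0 higher, against 8.31% and 8.50% of all tested genes. Colgalt2, which adds galactose to collagen lysines, had 0.212 and 0.153 CPM in the Ezh2 K307R livers and 1.04 and 0.852 CPM in the WT livers (edgeR adjusted p = 0.0931). Ppib, the folding catalyst cyclophilin B, had 163 and 136 CPM in the Ezh2 K307R livers and 265 and 250 CPM in the WT livers (adjusted p = 0.115). P3h1, a prolyl hydroxylase, had a log2 fold change of -0.50 (adjusted p = 0.327). Of 11 tested genes of secretion, trimming and crosslinking, 1 rose. It was Loxl4, a lysyl oxidase that crosslinks collagen, with 3.77 and 7.47 CPM in the Ezh2 K307R livers against 0.694 and 0.757 CPM in the WT livers (log2 fold change 2.94, SE 0.45, edgeR adjusted p = 0.0197), a call lost without Ezh2 K307R replicate 2 (0.0959). Bmp1, the procollagen C-proteinase, stood at 0.42 (adjusted p = 0.309) and Loxl2 at -0.63 (0.502) on the log2 scale.

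Among 9 tested collagen-degrading enzymes and their inhibitors, 1 fell. Mmp15, a membrane-anchored metalloproteinase, had 39.6 and 48.9 CPM in the Ezh2 K307R livers against 119 and 125 CPM in the WT livers (log2 fold change -1.46, SE 0.20, edgeR adjusted p = 0.0122). When 1 liver was left out its log2 fold change lay between -1.62 and -1.32. Mmp14, the membrane-anchored collagenase, had 60.5 and 65.2 CPM in the Ezh2 K307R livers and 27.1 and 40.9 CPM in the WT livers, without overlap (log2 fold change 0.88, edgeR adjusted p = 0.101). Its log2 fold change was 0.62 without WT replicate 1 and 1.21 without WT replicate 2. Prep, a prolyl peptidase, had a log2 fold change of -0.57 (adjusted p = 0.191). Of 7 tested collagen receptors 0 were called, by edgeR, and 1 was higher and 0 lower at an unadjusted p under 0.05, where 8.50% of all tested genes were higher and 8.31% lower. The log2 fold changes with the smallest p-values were 0.56 for Mrc1 (adjusted p = 0.265), 0.58 for Lair1 (0.491) and -0.21 for the integrin Itgb1 (0.676).

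Of 16 tested proteins that bind or sit on collagen fibrils, 2 rose and 0 fell, against 1.39% and 1.47% of all tested genes. Their median log2 fold change was 0.09, with 8 positive and 8 negative. At an unadjusted p under 0.05, 5 of the 16 were higher and 3 lower, against 8.50% and 8.31% of all tested genes. Dcn, decorin, which binds type I fibrils, had 183 and 135 CPM in the Ezh2 K307R livers against 52.4 and 71.6 CPM in the WT livers (log2 fold change 1.36, SE 0.25, edgeR adjusted p = 0.0348), a call lost without Ezh2 K307R replicate 1 (0.0747). Prelp, which links basement membranes to fibrils, had 60.2 and 71.5 CPM in the Ezh2 K307R livers against 23.1 and 29.4 CPM in the WT livers (1.32, SE 0.21, adjusted p = 0.0217), a call lost without Ezh2 K307R replicate 2 (0.0646). Eln, elastin, had 2.23 and 2.40 CPM in the Ezh2 K307R livers and 4.46 and 15.3 CPM in the WT livers (-2.10, SE 0.54, adjusted p = 0.0918), the same order of livers as Col1a1 in the WT pair. Its log2 fold change was -2.72 without WT replicate 1 and -0.95 without WT replicate 2. Of 16 tested partners of type IV in basement membranes, 1 fell, against 1.47% of all tested genes. At an unadjusted p under 0.05, 1 was higher and 2 lower, against 8.50% and 8.31%. Lama3, a laminin chain, had 4 and 7 reads in the Ezh2 K307R livers against 133 and 47 reads in the WT livers (log2 fold change -4.08, SE 0.72, edgeR adjusted p = 0.0312). Its value was -2.93 without WT replicate 1 and -4.72 without WT replicate 2, and its call was lost without Ezh2 K307R replicate 1 (0.0897) or 2 (0.0723). Lama2 stood at -1.28 (adjusted p = 0.261) and Lamc3 at 1.48 (0.285).

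Of 22 tested genes of TGF-beta and related fibrogenic signals, which are known to raise collagen synthesis in stellate cells, 1 fell, against 1.47% of all tested genes, and the median log2 fold change was 0.07. At an unadjusted p under 0.05, 2 of the 22 were higher and 2 lower, against 8.50% and 8.31% of all tested genes. Tgfbr2, the receptor that binds TGF-beta, had 19 and 19.2 CPM in the Ezh2 K307R livers against 54.2 and 37.4 CPM in the WT livers (log2 fold change -1.26, SE 0.23, edgeR adjusted p = 0.0346), a call lost without Ezh2 K307R replicate 1 (0.0938) or 2 (0.10). Pdgfa, a growth factor for mesenchymal cells, had a log2 fold change of -1.67 (adjusted p = 0.0669). It was -1.82 without WT replicate 1 and -1.51 without WT replicate 2. Smad7, an inhibitor of TGF-beta signalling, had 17.4 and 7.83 CPM in the Ezh2 K307R livers and 2.89 and 5.73 CPM in the WT livers (1.54, adjusted p = 0.127), without overlap. Its log2 fold change ranged from 0.85 without Ezh2 K307R replicate 1 to 2.12 without WT replicate 2.

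Markers of the cells that make collagen did not move as 1 group. Because the marker lists were chosen with earlier results of these data known, their counts are description and not a test. The 14 stellate cell markers, all tested, had positive log2 fold changes in 14 of 14 cases, with a median of 1.22, against 6558 of 12837 tested genes with a positive value and a median of 0.01. Of the 14, 3 rose and 0 fell, against 1.39% and 1.47% of all tested genes, and 11 were higher and 0 lower at an unadjusted p under 0.05, against 8.50% and 8.31%. Their summed level was 443 and 358 CPM in the Ezh2 K307R livers against 122 and 213 CPM in the WT livers, the opposite direction to that of the fibrillar chains. The 3 that rose were Lhx2, a stellate cell transcription factor (3.82 and 4.35 CPM in the Ezh2 K307R livers against 0.579 and 0.947 CPM in the WT livers, edgeR adjusted p = 0.0266), and the collectins Colec10 (log2 fold change 1.54, adjusted p = 0.0346) and Colec11 (1.5, adjusted p = 0.0354). Each of the 3 lost its call without Ezh2 K307R replicate 1 (0.0750, 0.0933 and 0.0814), and Lhx2 also without Ezh2 K307R replicate 2 (0.115).

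The markers of contractile myofibroblasts and of portal fibroblasts followed WT replicate 2. The 8 myofibroblast markers, of which 4 were tested and the other 4 were under 1 CPM in every liver, summed to 16.6 and 11.2 CPM in the Ezh2 K307R livers and 13.9 and 32.8 CPM in the WT livers. Acta2, smooth muscle actin, had 1.91 and 1.94 CPM in the Ezh2 K307R livers and 3.12 and 9.66 CPM in the WT livers (edgeR adjusted p = 0.136), and Myl9 (0.247) and Tagln (0.465) were not called either. Of the 4 tested, 3 had a negative and 1 a positive log2 fold change. At an unadjusted p under 0.05, 2 of the 4 were lower and 0 higher, against 8.31% and 8.50% of all tested genes. The 10 markers of portal fibroblasts and mesothelium, of which 8 were tested, summed to 19.3 and 15.9 CPM in the Ezh2 K307R livers and 20.4 and 49.8 CPM in the WT livers. Of the 8, 7 had a negative and 1 a positive log2 fold change, and 0 were called. At an unadjusted p under 0.05, 3 were lower and 0 higher, against the same 8.31% and 8.50%. Fbln2, a fibulin of portal fibroblasts, had 0.955 and 0.921 CPM in the Ezh2 K307R livers and 1.39 and 3.46 CPM in the WT livers (edgeR adjusted p = 0.236). No marker of these 3 lists was at 0 in all 4 livers. The 12 sinusoidal endothelial markers summed to 186 and 215 CPM in the Ezh2 K307R livers and 136 and 176 CPM in the WT livers, and 0 of them were called, with 3 higher and 1 lower at an unadjusted p under 0.05, against 8.50% and 8.31% of all tested genes. The part of these cell types in the lower collagen levels was not tested.

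**Figure D5:**
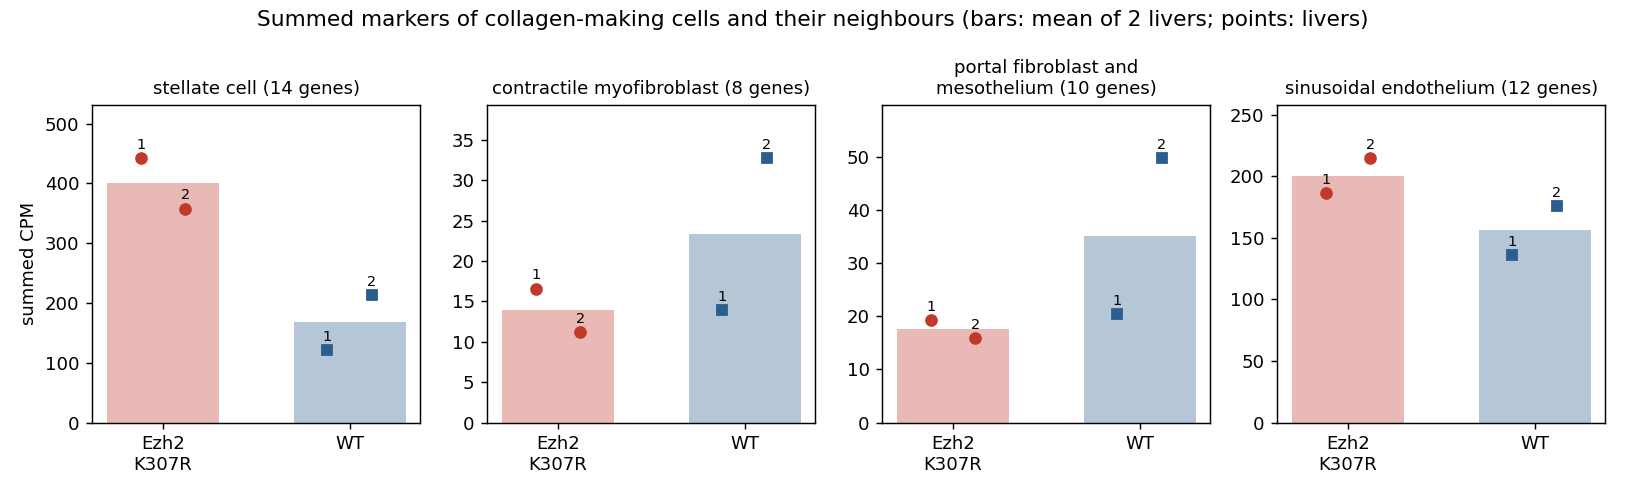
Summed CPM of 4 marker lists, with bars for the mean of 2 livers and points for livers marked by replicate number; each panel has its own axis from 0. Stellate cell markers are higher in both Ezh2 K307R livers (443 and 358) than in the WT livers (122 and 213), while WT replicate 2 stands above the other livers for myofibroblast markers and for portal fibroblast and mesothelial markers.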

How the data were processed

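Transcripts of 4 mouse livers, 2 of Ezh2 K307R and 2 of WT mice, were measured by RNA sequencing. The labels' protocols name TRIzol for the RNA of frozen livers and BGI for the libraries. Alignment and counting used HISAT, Bowtie2 and RSEM on mm10, per the submitters' processing notes. Versions, strand setting and read length were not given in the sources used here, and reads were not realigned. Each deposited table gives RSEM expected counts, which were not normalized, and FPKM, which the authors scaled to transcript length and depth, per the file headers. A transcript absent from a table was set to 0.

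Expected counts were summed per Entrez gene and rounded, and 17502 of 17543 genes were named from RefSeq's GRCm38.p6 gene table, the assembly of mm10. RSEM divides reads between near-identical or overlapping transcripts, so values of single transcripts are estimates. Genotypes were compared with edgeR 4.0.16 (quasi-likelihood F test, TMM scaling, filterByExpr, genotype as the only term, R 4.3.3), with Benjamini-Hochberg adjustment over all tested genes, after a check on simulated counts. The common biological coefficient of variation was 0.217. SEs were derived from the F values, and errors in the text are SDs over 2 livers. Class sums use FPKM and have no test.

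Types I, II, III, V, XI, XXIV and XXVII were taken as fibrillar, and IV, XV and XVIII as basement membrane. Named are the collagen genes called, the 8 tested ones with the highest FPKM, the chains Col1a1, Col1a2, Col4a1 and Col4a2, and from each pathway list the called genes and up to 3 with the smallest p. The remaining collagen genes, Alas2 and the single genes of the marker lists were named after their values were seen. The members and lists were chosen with earlier results of these data known. Alternatives were scaling by RLE, upper quartile or total count, DESeq2 1.42.0, limma 3.58.1 (voom, and log2 FPKM with pseudocounts of 1 and 0.1 for genes that averaged 1 FPKM or more in either genotype), other filters, a block for replicate number, and fits without each liver in turn.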

Additional observations from a re-analysis of the deposited data

How the results depend on the processing

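Col27a1 was lower and called in all 15 fits. The count of collagen genes called lower, 6 with all livers, ranged from 1 to 10 when single livers were left out, and was 1 with total-count scaling, 2 with limma-voom, 1 with limma on log2(FPKM + 1), 1 on log2(FPKM + 0.1) and 3 with a mean of at least 1 CPM. The count called higher, 0 with all livers, ranged from 0 to 2 without single livers. Col5a1 ranged from -0.54 without WT replicate 1 to 1.37 without WT replicate 2. Outside the collagens, Loxl4, Prelp, Dcn, Tgfbr2, Lhx2, Colec10, Colec11 and Alas2 lost their calls in both limma fits to FPKM. Lama3, which had no value in those fits, lost its call with limma-voom (adjusted p = 0.0892). Dcn and Colec10 also lost theirs with the replicate block (0.0506 and 0.0556), and Colec11 with total-count scaling (0.0555). Mmp15 kept its call in every fit with all livers. Over all tested genes, 178 were higher and 189 lower with the settings of the report. The higher count was 378 with DESeq2, 94 on log2(FPKM + 1), 91 on log2(FPKM + 0.1), 410 with no filter beyond 1 read and from 117 to 327 without single livers. The lower count was 124 with total-count scaling, 386 with DESeq2, 69 on log2(FPKM + 1), 70 on log2(FPKM + 0.1), 419 with no filter and from 94 to 393 without single livers. The log2 ratio of summed fibrillar FPKM, -1.60, ranged from -1.98 to -1.07 without single livers, and that of the other classes, 0.08, from -0.42 to 0.85. The basement membrane ratio of 0.26 became -1.21 with type IV chains only and -1.08 without Col18a1, which was chosen after seeing the data. By construction, leaving out a liver leaves 1 genotype with a lone liver, assumed to vary like the others, and the cause of the other shifts was not tested. Replicate numbers did not pair the livers (correlation of their deviations -0.003). With the replicate block 4 collagen genes were lower, 3 of them among the 6, and across all genes 166 were higher and 181 lower.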

Other observations

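Markers of the other liver cells are given as values. Over all tested genes, 8.50% were higher and 8.31% lower at an unadjusted p under 0.05. The 11 Kupffer cell markers summed to 518 and 358 CPM in the Ezh2 K307R livers and to 295 and 343 CPM in the WT livers, and 0 were called by edgeR (4 higher and 0 lower at an unadjusted p under 0.05). The 10 hepatocyte markers summed to 148161 and 149261 CPM in the Ezh2 K307R livers against 158994 and 158261 CPM in the WT livers, with 0 called and 0 at an unadjusted p under 0.05. Of 8 bile duct markers, 7 were in the tables, and these summed to 32.4 and 60.9 CPM in the Ezh2 K307R livers and 72.4 and 59.0 CPM in the WT livers, with 0 called (1 higher and 1 lower unadjusted). The 9 lymphocyte markers summed to 16.9 and 10.9 CPM in the Ezh2 K307R livers and 11.2 and 14.7 CPM in the WT livers, with 0 called and 0 unadjusted. The 5 red cell markers summed to 674 and 770 CPM in the Ezh2 K307R livers against 437 and 553 CPM in the WT livers. Of these, Alas2, the X-linked enzyme of haem synthesis in red cells, fell (16.8 and 27.6 CPM in the Ezh2 K307R livers against 108 and 62.3 CPM in the WT livers, edgeR adjusted p = 0.0276), a call lost without Ezh2 K307R replicate 1 (0.0598), while the globins Hba-a2 (log2 fold change 0.86) and Hbb-bt (0.95) had an adjusted p of 0.117 each. The whole span of Alas2 lies within that of Apex2 in the annotation, so bases that both share cannot be assigned. The 5 sex-chromosome genes were all called, with Xist higher and the 4 Y-linked genes lower.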
